A study of Mus musculus with 6 samples.

Results

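Amino acid transporters of the solute carrier (SLC) families were examined in bulk RNA-seq of inguinal white adipose tissue (iWAT), a subcutaneous fat depot. Genes were taken by name, as every symbol that starts with *Slc1a*, *Slc3a*, *Slc6a*, *Slc7a*, *Slc36a*, *Slc38a* or *Slc43a* followed by digits, apart from the creatine carrier *Slc6a8*. This gave 57 of the 19509 symbols in the table, on 130 of its 37024 rows, and the row with the highest total stood for a symbol with several rows. *Slc7a6os*, which lies next to *Slc7a6* and is not a carrier gene, meets the naming rule and is kept as 1 of the 57. The letters also take in carriers whose main cargo is not an amino acid, such as the serotonin carrier *Slc6a4*.

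The 6 libraries came from mice on a C57BL/6 background fed a Western diet for 12 weeks. The 3 biological replicates of *Lexis*-AdWT carried the floxed *Lexis* allele (*Lexis* fl/fl) without Cre, and the 3 of *Lexis*-AdKO carried the same allele with adiponectin-Cre. *Lexis* is a long noncoding RNA. Both groups thus hold the floxed allele, and adiponectin-Cre acts in adipocytes, so that other cells of the depot keep *Lexis* in both. The sex and age of these animals are not given in the sources used here. The count of *4930412L05Rik*, the mouse gene annotated at *Lexis*, was 8, 9 and 8 in the AdWT libraries and 21, 11 and 13 in the AdKO libraries. These values show no loss of the gene under the AdKO label, the table gives no counts by exon, and every direction below follows the labels.

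Amino acids are charged or polar and cross membranes through carriers. SLC1 carriers move acidic and small neutral amino acids with sodium, SLC6 carriers use sodium and chloride, and SLC7 carriers include the cationic amino acid transporters and the light chains that pair with an SLC3 heavy chain to reach the cell surface. SLC36 carriers are driven by protons, SLC38 carriers move small neutral amino acids such as glutamine with sodium, and the first members of SLC43 let large neutral amino acids pass. In fat, *Slc7a10* (Asc-1, a carrier of serine, glycine and other small neutral amino acids) is known as a surface marker of white adipocytes, and *Slc36a2* (PAT2, a carrier of glycine, alanine and proline) as one of brown and beige adipocytes. *Slc6a7* encodes the high-affinity proline transporter, best known from glutamatergic nerve endings.

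Total counts lay between 14470542 and 17882713 per library. Levels are given as CPM, counts scaled to library size with edgeR's TMM factors. The 2 groups were compared by the quasi-likelihood test of edgeR, with *p*-values adjusted (Benjamini-Hochberg) across the 9872 rows that passed its filter on low counts. Adipocyte markers were abundant, with a summed level between 46200 and 54660 CPM in AdWT and between 41390 and 42060 CPM in AdKO over the 5 genes above 0 of 6 with a row. *Pnpla2*, a lipase of every adipocyte, was at 0 in all 6 libraries, so that a 0 in this table does not show that a gene is silent. Skeletal muscle markers summed to between 18 and 173.9 CPM in AdWT, the highest in replicate 2, against 4.55 to 6.05 CPM in AdKO, and 7 of 8 genes with a row were above 0. Epithelial markers, all 5 with a row above 0, stood at 20.3 CPM in AdWT replicate 3 and 48.0 CPM in AdKO replicate 3 and between 0.894 and 1.44 CPM elsewhere.

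Of the 57 genes, 26 could be tested, 19 had counts too low for the filter and 12 were at 0 in every library. Only *Slc1a5* averaged over 1000 CPM, 6 genes lay between 100 and 1000, 8 between 10 and 100 and 8 between 1 and 10. *Slc7a3*, *Slc7a7*, *Slc6a15* and *Slc38a6*, annotated in this genome, had no row analysed here. To compare genes with each other, CPM was divided by the length of the longest annotated transcript (GENCODE on NCBIM37, the mm9 assembly) in kilobases. On this scale *Slc1a5* (ASCT2), an exchanger of glutamine and other neutral amino acids, stood first with 1631 CPM per kb (range 1459 to 1909 over the 6 libraries). *Slc7a10* followed with 306 CPM per kb (range 238 to 388), *Slc36a2* with 216 (range 178 to 256) and the taurine carrier *Slc6a6* with 144 (range 123 to 159). *Slc7a10* was above *Slc36a2* in 6 of 6 libraries, although the ranges of these neighbours overlap.

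Further down, *Slc6a13* (GAT2, a carrier of GABA and taurine) had 64.9 CPM per kb, *Slc38a2* (SNAT2) 45.1, *Slc7a8* (LAT2) 31.2 and *Slc36a1* (PAT1, found on lysosomes) 14.3. The heavy chain *Slc3a2* (4F2hc), the partner of several SLC7 light chains, had 12.9 CPM per kb (range 11.05 to 14.8). The level of *Slc7a10* per kb was thus 23.6 times that of this heavy chain, with a ratio between 19 and 30.5 in single libraries. *Slc3a2* has 3 rows, of which the row used holds 83.0% of the counts, and the sources used here do not say how reads shared by rows were counted, so that genes with several rows may be undercounted. *Slc36a1* stood above *Slc3a2* in 5 of 6 libraries and *Slc3a2* above the lysosomal carrier *Slc38a9* in 4 of 6, and these neighbours have overlapping ranges. *Slc6a7* took place 15 in this order, with 3.08 CPM per kb (range 1.84 to 4.96), close to the leucine carrier *Slc7a5* (LAT1) at 3.28 (range 2.41 to 4.93).

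**Figure D1:**
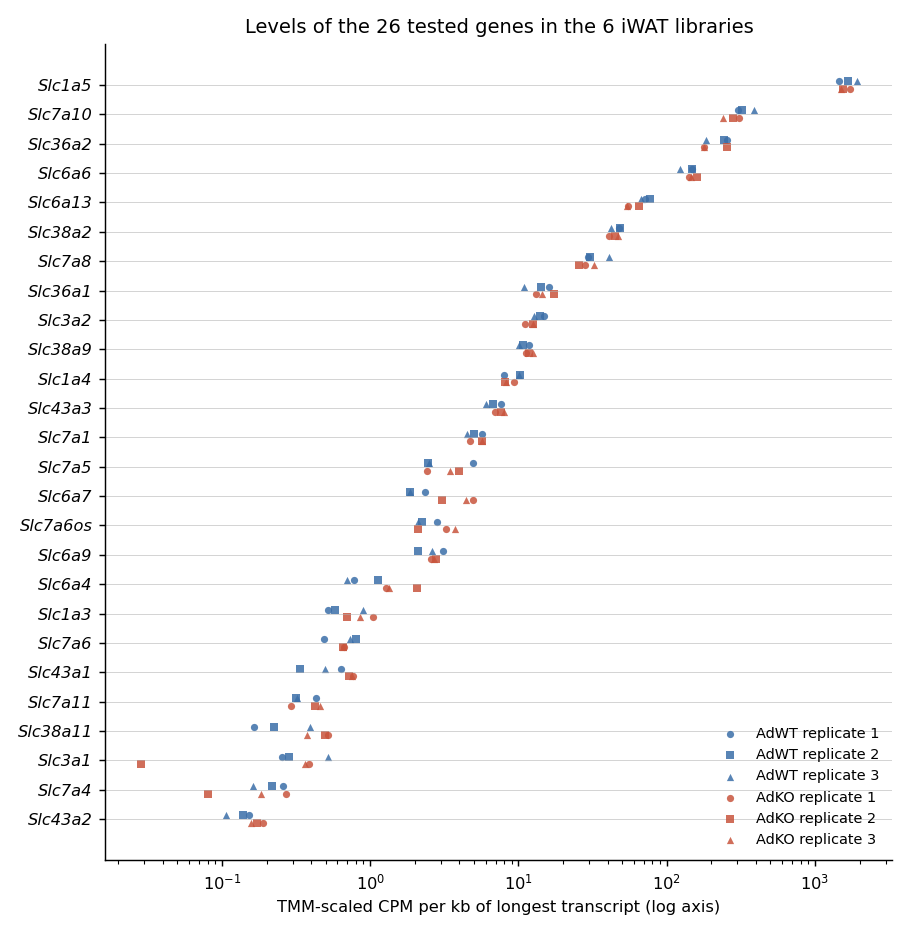
Level of each of the 26 tested genes in each library, as TMM-scaled CPM per kb of the longest annotated transcript on a log axis, with AdWT in blue and AdKO in red and 1 marker shape per replicate. *Slc1a5* lies near 1631, *Slc6a7* near 3.08 with its AdKO points to the right of its AdWT points.

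The genes that took the most reads were *Slc1a5*, with 62.1% of the summed CPM of the 57, *Slc6a6* with 12.2%, *Slc7a10* with 8.06% and *Slc36a2* with 7.16%, and the 10 highest held 98% of it. *Slc1a5* ranked 18 among all rows by total count. Its TMM-scaled level was 4095, 4659 and 5360 CPM in AdWT and 4846, 4335 and 4178 CPM in AdKO. The highest and the lowest value both came from AdWT, and the groups overlapped (log2 fold change -0.08, 95% interval -0.38 to 0.22). Fold changes are given throughout as AdKO over AdWT.

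Between the genotypes, edgeR gave no gene of these families an adjusted *p* under 0.05, where it gave one to 0% of all rows, and the smallest adjusted *p* among them was 0.817. At an unadjusted *p* under 0.05 there were 4 of 26 (15.4%), against 5.73% of all rows tested. Of these, 3 were higher in AdKO (2.76% of all rows) and 1 was lower (2.98%). Over all rows, scaling by library size only moved the split from 272 higher and 294 lower to 313 higher and 162 lower. The 3 were *Slc6a7*, *Slc6a4* and *Slc43a1*, and the fourth was *Slc6a13*. By library size only, *Slc38a11*, with low AdWT counts of 6, 9 and 14, stood in the place of *Slc43a1*. Without *Slc6a7*, which was singled out with its rise already known, 3 of 25 were left. With the skeletal muscle markers as a covariate, 1 of 26 was left, *Slc6a4*, against 3.19% of all rows. The sum of these markers does not overlap between the groups, nor do 5 of their 6 tested genes, so that the covariate and the genotype are largely confounded. The standard error of *Slc6a7* went from 0.213 to 0.514 in that fit. In the same fit the log2 fold change of *Slc6a7* went from 1.05 to 1.02, that of *Slc6a13* from -0.32 to -0.13 and that of *Slc43a1* from 0.62 to -0.10. Without replicate 3 of both groups, the libraries with raised epithelial markers, there were 4 of 25, *Slc6a7*, *Slc6a13*, *Slc3a2* and *Slc38a11*, against 4.15% of all rows. In that fit *Slc38a11* met the filter through its AdKO libraries alone, the group where it was higher, so that its call is no support for a difference. Over the 26, 14 log2 fold changes lay above 0 and 12 below, with a median of 0.06, against 0.01 over all rows tested. They ran from -0.43 for *Slc3a1*, which had between 1 and 18 counts per library, to 1.05 for *Slc6a7*.

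**Figure D2:**
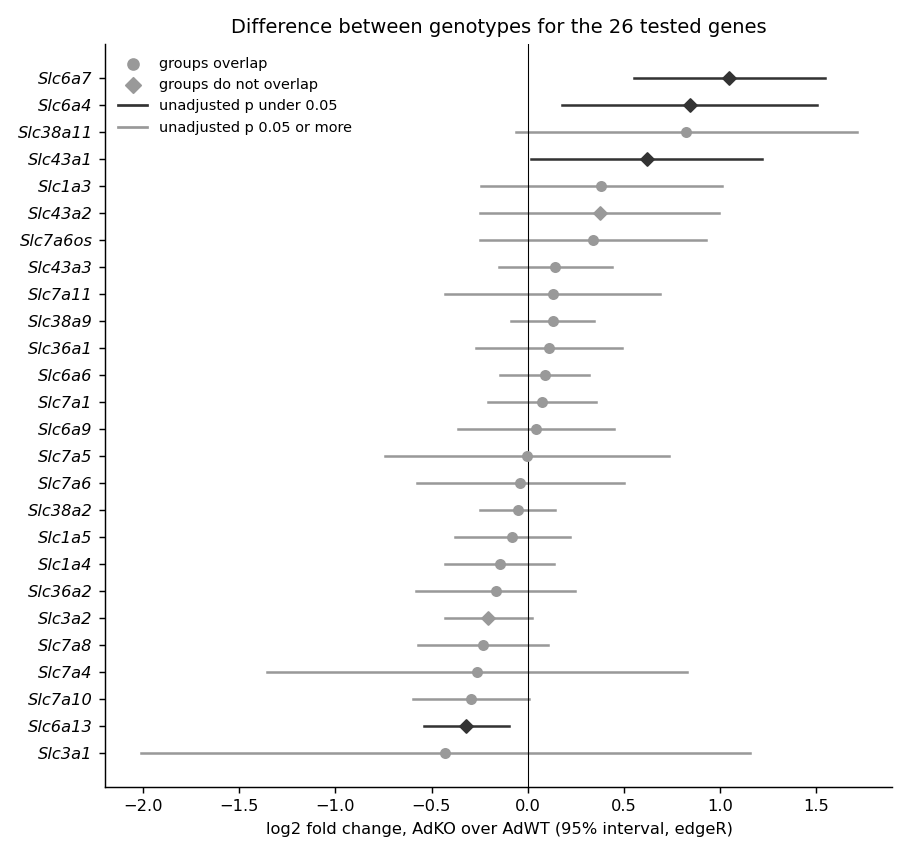
Log2 fold change of each tested gene, AdKO over AdWT, with its 95% interval from edgeR's fit of 3 against 3 libraries. Dark symbols have an unadjusted p under 0.05 and diamonds mark groups that do not overlap. *Slc6a7* stands at the top with 1.05, and most intervals cross 0.

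*Slc6a7* (ENSMUSG00000052026.7) is annotated on chromosome 18 of NCBIM37 (mm9) from 61155035 to 61173853 on the minus strand, with a single row in the table and no other annotated gene across it. Its counts were 119, 103 and 92 in AdWT and 241, 155 and 247 in AdKO. In TMM-scaled CPM these are 7.79, 6.16 and 6.16 against 16.6, 10.2 and 14.8. All 3 AdKO libraries lay above all 3 AdWT libraries, and the lowest of them, AdKO replicate 2, was still above the highest, AdWT replicate 1. The means were 6.70 ± 0.941 CPM (SD, *n* = 3) and 13.9 ± 3.29 CPM (SD, *n* = 3), a fold of 2.07 (95% interval 1.47 to 2.92). The log2 fold change of 1.05 was the largest of the 26 and took place 52 among all 9872 rows. Among these families it took place 2 without AdWT replicate 1 and place 3 without AdWT replicate 2, AdWT replicate 3 or AdKO replicate 1. It also took place 2 with the muscle markers as a covariate and without replicate 3 of both groups. With low genes let in, it took place 4 in DESeq2 and place 5 in edgeR with at least 1 count in any library. Its *p* ranked 12 among all rows, with an adjusted *p* of 0.817 in edgeR.

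In DESeq2 with its defaults, the adjusted *p* of *Slc6a7* was 0.0112 at a log2 fold change of 1.04. It was the only gene of these families that it called, where it called 0.392% of all rows it adjusted. Since *Slc6a7* was chosen for this difference, these values describe it and are no separate test. Leaving out single libraries gave log2 fold changes from 0.90, without AdKO replicate 1, to 1.22, without AdKO replicate 2. With the skeletal muscle markers as a covariate the value was 1.02, with an unadjusted *p* of 0.0942 in edgeR. Markers of neurons summed to between 2.28 and 2.81 CPM in AdWT and between 2.06 and 4.15 CPM in AdKO, with 4 of 6 genes with a row above 0 and *Rbfox3* and *Elavl4* at 0 in every library. The part of these markers in the difference of *Slc6a7* was not tested. In tissue RNA, more cells of a kind and more RNA per cell cannot be told apart, for this and every other gene here.

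**Figure D3:**
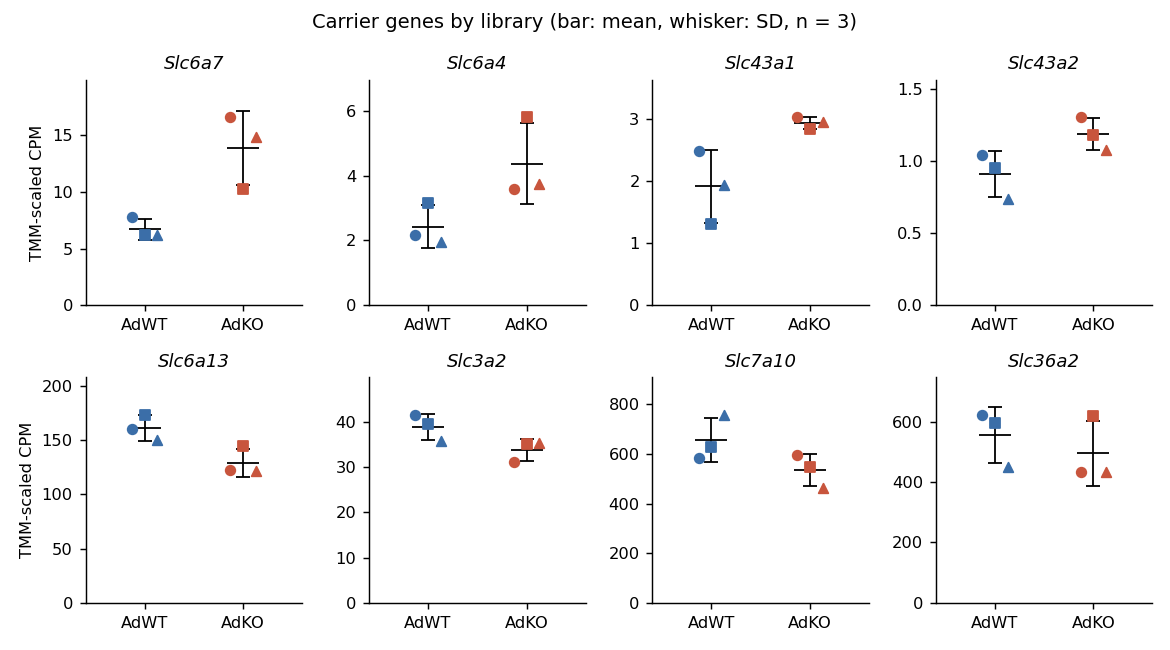
TMM-scaled CPM of 8 genes in each library, with circle, square and triangle for replicates 1, 2 and 3 and bars for the mean and SD of 3 libraries. The 3 AdKO points of *Slc6a7* lie between 10.2 and 16.6, above the AdWT points at 6.16 to 7.79, while those of *Slc36a2* overlap.

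The rest of the SLC6 family split by gene. *Slc6a4*, the serotonin transporter, is annotated on chromosome 11 from 76812105 to 76845842 and measured 2.16, 3.17 and 1.94 CPM in AdWT against 3.57, 5.80 and 3.73 CPM in AdKO. Its groups did not overlap, with counts between 29 and 88 and AdKO replicate 2 the highest. The log2 fold change was 0.84 (standard error 0.283, unadjusted *p* = 0.0192 and adjusted *p* = 0.851 in edgeR). It was 0.58, with an unadjusted *p* of 0.0755 in edgeR, without AdKO replicate 2, and 1.57 with the muscle markers as a covariate. The unadjusted *p* in edgeR was also above 0.05 without AdWT replicate 1 (0.0566) and without AdWT replicate 3 (0.0607).

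*Slc6a13*, on chromosome 6 from 121250245 to 121287751, went the other way. It measured 160, 173 and 150 CPM in AdWT and 122, 144 and 121 CPM in AdKO, so that its groups did not overlap either. The means of 161 ± 11.7 and 129 ± 13.004 CPM (SD, *n* = 3 each) gave a fold of 0.802 (95% interval 0.689 to 0.933). The unadjusted *p* was 0.0105 and the adjusted *p* 0.851 in edgeR, and leaving out single libraries gave log2 fold changes from -0.41 to -0.27. With the skeletal muscle markers as a covariate it was -0.13, with an unadjusted *p* of 0.54 in edgeR.

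*Slc6a6* had 862 ± 88.7 CPM in AdWT and 917 ± 57.2 CPM in AdKO (SD, *n* = 3 each) and a 95% interval of the fold from 0.906 to 1.25. The glycine carrier *Slc6a9* had 9.06 ± 1.75 and 9.33 ± 0.352 CPM (SD, *n* = 3 each). Its exons share 1429 bases with *Ccdc24* on the other strand, and since the use of strand in counting is not given in the sources used here, reads of the 2 genes cannot be told apart. Of the carriers of transmitters, *Slc6a2* (noradrenaline) and *Slc6a3* (dopamine) were at 0 in every library, as was the nerve enzyme *Th*. Since *Pnpla2* is at 0 in the same table, no upper limit on their level is drawn from these values. *Slc6a5*, *Slc6a14*, *Slc6a18* and *Slc6a20b* were also at 0, and *Slc6a11*, *Slc6a12*, *Slc6a17*, *Slc6a19* and *Slc6a20a* stayed under the filter.

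In the SLC43 family all 3 genes had log2 fold changes above 0, and 2 of 3 did with the muscle markers as a covariate. *Slc43a1* (LAT3), a carrier of branched-chain and other large neutral amino acids on chromosome 2 from 84679007 to 84703751, measured 2.49, 1.32 and 1.94 CPM in AdWT and 3.02, 2.83 and 2.94 CPM in AdKO. Its groups did not overlap, and the AdKO libraries lay close together. The log2 fold change was 0.62 (95% interval 0.02 to 1.22, unadjusted *p* = 0.0448 and adjusted *p* = 0.851 in edgeR). It was 0.40 without AdWT replicate 2, where the muscle markers were highest, with an unadjusted *p* of 0.133 in edgeR, and -0.10 with the muscle markers as a covariate. Among fits that leave out 1 library, the unadjusted *p* in edgeR was under 0.05 only without AdWT replicate 1 (0.0136). It was also above 0.05 with library size only (0.0514), with a replicate block (0.052) and with the rows of a symbol summed (0.0608), and it was 0.0987 in DESeq2.

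*Slc43a2* (LAT4) also had groups that did not overlap, with 1.05, 0.96 and 0.74 CPM in AdWT and 1.31, 1.19 and 1.08 CPM in AdKO. These are counts of 11 to 19, and the row used holds 47.6% of the symbol's counts over 6 rows. Its interval crossed 0 (log2 fold change 0.38, 95% interval -0.25 to 0.997). *Slc43a3*, a carrier of purine nucleobases, had 17.8 ± 2.10 and 19.7 ± 1.41 CPM (SD, *n* = 3 each), and its groups overlapped.

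Of the heavy chains, *Slc3a2* measured 41.5, 39.5 and 35.8 CPM in AdWT and 31.1, 35.1 and 35.3 CPM in AdKO. The groups did not overlap, by a margin of under 1 CPM between AdWT replicate 3 and AdKO replicate 3, and the log2 fold change was -0.20 (95% interval -0.43 to 0.02, unadjusted *p* = 0.0709 in edgeR). The unadjusted *p* was 0.0452 after summing its 3 rows, 0.212 with library size only and 0.744, at a log2 fold change of -0.07, with the muscle markers as a covariate. Without AdWT replicate 3 the unadjusted *p* in edgeR was 0.0284, at -0.27, and without replicate 3 of both groups 0.0483, at -0.29. In the other fits that leave out 1 library it was above 0.05. *Slc3a1* (rBAT) had a 95% interval from -2.01 to 1.15, and its exons share 608 bases with *Prepl* on the other strand.

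Of the light chains, *Slc7a10*, on chromosome 7 from 35971404 to 35989917, measured 585, 629 and 756 CPM in AdWT and 594, 548 and 464 CPM in AdKO. AdKO replicate 1 lay above AdWT replicate 1, so the groups overlapped, and the log2 fold change was -0.29 (95% interval -0.59 to 0.00, unadjusted *p* = 0.0527 and adjusted *p* = 0.851 in edgeR). The unadjusted *p* in DESeq2 was 0.033, where 2.42% of all rows had one under 0.05. The unadjusted *p* in edgeR was also under 0.05 with RLE scaling (0.0463), upper quartile scaling (0.0472), a robust fit (0.0488) and at least 1 count in any library (0.0253). Without AdWT replicate 1 it was 0.0286 and without AdKO replicate 1 it was 0.0372, with log2 fold changes of -0.37 and -0.38. The log2 fold change was -0.19 without AdWT replicate 3, -0.09 without replicate 3 of both groups and -0.58 with the muscle markers as a covariate. Its exons share 726 bases with *Lrp3* on the other strand.

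The summed adipocyte markers were lower in every AdKO library than in every AdWT library, as given above. Most of this sum is *Fabp4* and *Lep*, whose groups did not overlap, while those of *Adipoq*, *Lipe* and *Plin1* did, with *Plin1* at a log2 fold change of 0.10. Their part in the level of *Slc7a10* was not tested. *Slc7a8* had 136 ± 25.9 and 116 ± 13.2 CPM (SD, *n* = 3 each), with AdWT replicate 3 the highest library. *Slc7a5* varied more between libraries than between groups, with 17.3 CPM in AdWT replicate 1 and between 8.46 and 13.9 CPM elsewhere (log2 fold change -0.005, 95% interval -0.74 to 0.73).

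*Slc7a11* (xCT), the cystine and glutamate exchanger, had 3.29 ± 0.609 CPM in AdWT and 3.59 ± 0.804 CPM in AdKO (SD, *n* = 3 each). The cationic carrier *Slc7a1* (CAT1) had 36.4 ± 4.26 and 38.3 ± 3.96 CPM (SD, *n* = 3 each). *Slc7a4* and *Slc7a6* were tested at under 3 CPM on average in either group, with intervals from -1.36 to 0.83 and from -0.58 to 0.50 on the log2 scale, and the exons of *Slc7a4* share 554 bases with *P2rx6* on the other strand. *Slc7a6os*, the neighbour that is no carrier, had a log2 fold change of 0.34 (95% interval -0.25 to 0.93), and its unadjusted *p* in edgeR was under 0.05 without AdKO replicate 2. *Slc7a2*, *Slc7a13*, *Slc7a14* and *Slc7a15* stayed under the filter, and *Slc7a9* and *Slc7a12* were at 0.

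*Slc36a2* measured 622, 594 and 450 CPM in AdWT and 433, 617 and 433 CPM in AdKO. AdWT replicate 3 was close to the lower AdKO libraries and AdKO replicate 2 to the higher AdWT libraries, and the groups of this marker of brown and beige adipocytes overlapped (fold 0.891, 95% interval 0.669 to 1.19). Without AdKO replicate 2 the log2 fold change went from -0.17 to -0.37, with an unadjusted *p* of 0.0486 and an adjusted *p* of 0.997 in edgeR. *Slc36a1* had 72.5 ± 14.2 and 78.4 ± 11.3 CPM (SD, *n* = 3 each), with a 95% interval of the fold from 0.831 to 1.41. *Slc36a3* and *Slc36a4* were at 0.

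Among the sodium-coupled SLC38 carriers, *Slc38a2* was one of the steadiest genes. It measured 219, 223 and 194 CPM in AdWT and 190, 206 and 218 CPM in AdKO, with a 95% interval of the fold from 0.842 to 1.11. *Slc38a9*, part of arginine sensing at the lysosome, had 33.2 ± 2.52 and 36.3 ± 1.96 CPM (SD, *n* = 3 each), and its spread within groups, 6.50% of its mean, was the smallest of the 26. *Slc38a11* had counts of 6, 9 and 14 in AdWT and 18, 18 and 15 in AdKO and a log2 fold change of 0.83 (95% interval -0.06 to 1.71). *Slc38a1* (SNAT1) was too low for the filter over 6 libraries, with counts of 4, 4 and 3 against 4, 11 and 11. Without AdKO replicate 1 it passed the filter through its AdKO libraries alone, the group where it was higher. Its unadjusted *p* under 0.05 in edgeR in that fit is therefore no support for a difference. Its scaled levels did not overlap, by a margin of under 0.1 CPM and on a row with 48.7% of the symbol's counts over 5 rows, which 9.3% of the rows kept out with at least 10 counts showed. *Slc38a3*, *Slc38a4*, *Slc38a8* and *Slc38a10* stayed under the filter, and *Slc38a5* and *Slc38a7* were at 0.

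The other tested SLC1 carriers overlapped between the groups. *Slc1a4* (ASCT1), which carries serine and other small neutral amino acids, had 37.2 ± 4.93 CPM in AdWT and 33.6 ± 2.68 CPM in AdKO (SD, *n* = 3 each). The glutamate carrier *Slc1a3* (GLAST) had a log2 fold change of 0.38 (95% interval -0.24 to 1.01) on counts between 35 and 67. The unadjusted *p* in edgeR was under 0.05 for *Slc1a3* without AdWT replicate 3 and for *Slc1a4* without AdWT replicate 1. *Slc1a1*, *Slc1a2*, *Slc1a6* and *Slc1a7* stayed under the filter.

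Over all 26 genes, the 2 groups did not overlap in 6 (23.1%), against 11.9% of all rows tested, with 4 higher in AdKO (6.16% of all rows) and 2 lower (5.72%). Without *Slc6a7* it was 5 of 25 (20%), with 3 higher. These are the 6 described above, *Slc6a7*, *Slc6a4*, *Slc43a1*, *Slc43a2*, *Slc6a13* and *Slc3a2*. AdWT replicate 3 held the lowest level of 9 of the 26, where it was lowest in 24% of all rows.

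The genes that act around these carriers were taken from lists of amino acid metabolism and sensing. Amino acid shortage is known to act through the factor ATF4, which raises carriers such as *Slc7a11*, *Slc7a5* and *Slc38a2* together with enzymes such as *Asns*, the asparagine synthetase. Of 30 genes listed for this response, 23 had a row, and *Atf4* itself had none. Of the 17 tested, 15 had a log2 fold change below 0, against 4767 of all 9872 rows tested. The median of the 17 was -0.09, against 0.01 over all rows tested. No gene had an adjusted *p* under 0.05 and 2 had an unadjusted *p* under 0.05 in edgeR, both lower in AdKO, against 5.73% of all rows in either direction. These were *Phgdh*, the first enzyme of serine synthesis, at -0.30 (standard error 0.116), and *Eif4ebp1*, a repressor of translation, at -0.18 (standard error 0.0756). The groups did not overlap in 4 of 17, *Cebpg*, *Eif4ebp1*, *Gars* and *Eprs*, all lower in AdKO, against 5.72% of all rows lower without overlap. The count below 0 was 14 of 17 with library size only and 11 of 18 without AdWT replicate 3, with medians of -0.04 and -0.07, where the medians over all rows were 0.05 and 0.004. At an unadjusted *p* under 0.05 in edgeR, 0 were left with library size only, with a replicate block, with the muscle markers as a covariate, and without AdWT replicate 2, AdWT replicate 3 or AdKO replicate 2.

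*Asns* measured 88.1, 117.7 and 142.9 CPM in AdWT and 115.4, 110.7 and 98.4 CPM in AdKO, so that its AdKO values lay within the AdWT range. The same was seen for *Trib3*, a target of ATF4, apart from AdKO replicate 3, which was the lowest library with 17.5 CPM. Of 10 genes listed for serine and glycine metabolism, 7 had a row, while *Psat1*, *Shmt2* and *Gldc* had none. All 6 tested lay below 0, with a median of -0.16, where 4767 of all 9872 rows tested lay below 0. With the muscle markers as a covariate, 4 of 6 lay below 0. *Phgdh* and *Psph* are in both lists, and the 1 gene of 6 with an unadjusted *p* under 0.05 is the same *Phgdh*, against 2.98% of all rows lower.

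The core of the amino acid response element was searched as TGATGCAA and its other strand TTGCATCA in RefSeq promoter sequences of GRCm38.p6, from 250 bases before to 50 after each gene start. Promoters were found for 42 of the 57 genes, and 2 of them (4.76%) held the motif, against 1.03% of 27025 genes in the table. The 3 matches are shown because they are the only ones among these promoters, with the motif in capitals, 5′ to 3′ on the strand of the gene, and with coordinates from an exact match to mm9.
*Slc1a4*, chr11:20232702-20232731, minus strand: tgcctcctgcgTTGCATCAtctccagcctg
*Slc7a11*, chr3:50247583-50247612, minus strand: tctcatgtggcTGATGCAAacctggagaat
*Slc7a11*, chr3:50247564-50247593, minus strand: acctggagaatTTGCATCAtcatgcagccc
The match in *Slc1a4* starts 4 bases before the gene start, and those in *Slc7a11* start 66 and 47 bases before it, 1 on each strand. A match describes these letters only, and binding was not measured. Other forms of the element and sequence outside this window were not searched, so that a gene without a match is not shown to lack it. Both genes overlapped between the genotypes, with log2 fold changes of -0.15 (95% interval -0.43 to 0.14) and 0.13 (95% interval -0.43 to 0.69).

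**Figure D4:**
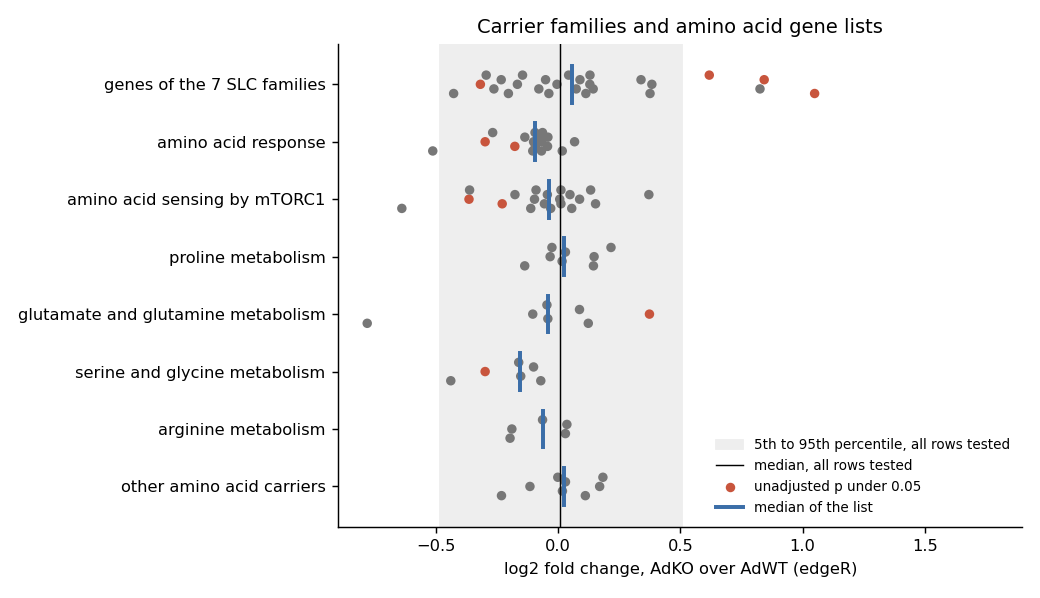
Log2 fold change, AdKO over AdWT, of the tested genes of the SLC families and of each amino acid gene list, with the list's median as a blue bar and genes with an unadjusted p under 0.05 in red. The grey band is the 5th to 95th percentile of all rows tested, from -0.49 to 0.51, and *Slc6a7* lies beyond it at 1.05.

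Of 20 tested genes of amino acid sensing by the kinase complex mTORC1, sensors as well as parts of the complexes involved, 9 lay above 0 and 11 below. Their median was -0.04. Here 2 had an unadjusted *p* under 0.05 in edgeR, both lower in AdKO, and none passed the adjustment, against 2.98% of all rows lower at an unadjusted *p* under 0.05. *Sesn2*, which encodes the leucine sensor Sestrin2, measured 137, 164 and 166 CPM in AdWT and 127, 114 and 122 CPM in AdKO, and its groups did not overlap. Its log2 fold change was -0.37 (standard error 0.0922, unadjusted *p* = 0.00489 and adjusted *p* = 0.817 in edgeR). *Mtor*, the kinase itself, measured 271, 257 and 275 CPM against 222, 237 and 226 CPM, also without overlap, and its log2 fold change was -0.23 (standard error 0.0644, unadjusted *p* = 0.00844 and adjusted *p* = 0.847 in edgeR). These were the only 2 of 20 (10%) without overlap, where 11.9% of all rows tested did not overlap and 5.72% were lower without overlap.

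Enzymes of proline metabolism were set beside the proline carrier. Of 8 tested, 5 lay above 0 and 3 below, with a median of 0.02. An unadjusted *p* under 0.05 in edgeR was given to 0 of 8, against 5.73% of all rows tested. *Prodh*, which starts proline breakdown, measured 38.0, 40.7 and 70.7 CPM in AdWT and 51.1, 36.9 and 47.7 CPM in AdKO. *Pycrl*, a proline-forming reductase, and *Pepd*, which frees proline from dipeptides, were higher in all 3 AdKO libraries than in any AdWT library, by log2 fold changes of 0.22 (95% interval -0.02 to 0.45) and 0.15 (95% interval -0.01 to 0.30). This was 2 of 8, where 6.16% of all rows were higher without overlap. The value of *Pycrl* was the highest of the 8. Of 7 tested genes of glutamate and glutamine metabolism, *Got1*, an aspartate aminotransferase, had an unadjusted *p* of 0.0449 in edgeR (log2 fold change 0.37, adjusted *p* = 0.851), with overlapping groups, as 1 of 7 against 2.76% of all rows higher. Its log2 fold change was 0.17 without replicate 3 of both groups. In arginine metabolism 0 of 5 had an unadjusted *p* under 0.05 in edgeR, against 5.73% of all rows tested.

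**Figure D5:**
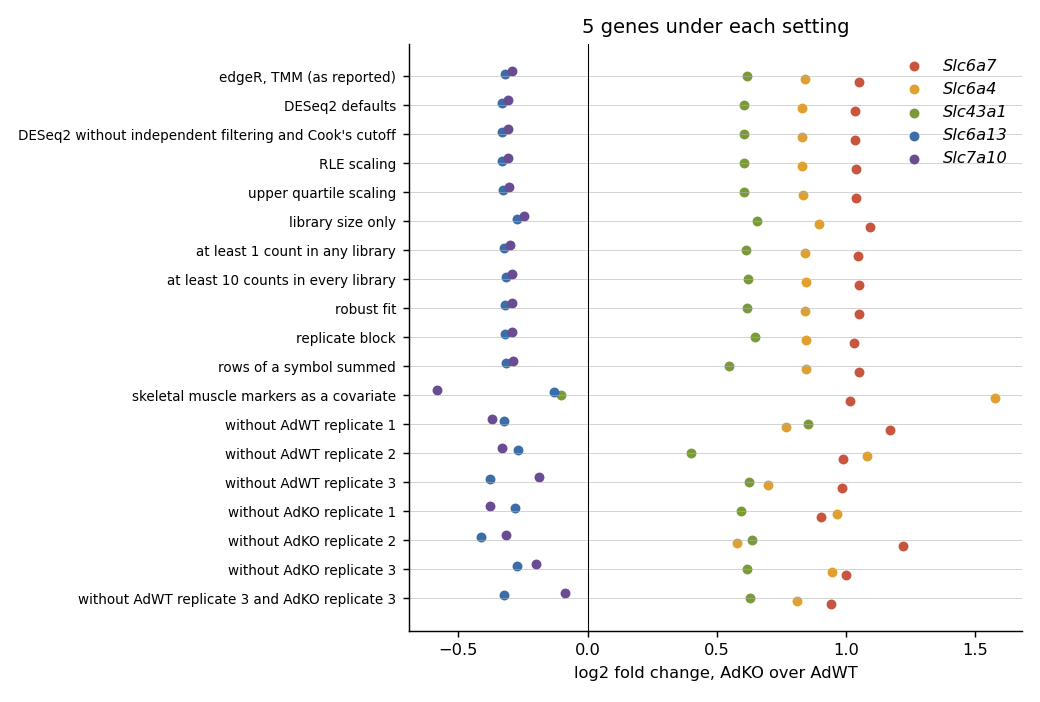
Log2 fold change, AdKO over AdWT, of 5 genes under edgeR as reported and under each alternative setting. *Slc6a7* stays between 0.90 and 1.22 and *Slc6a13* below 0 in all of them, while *Slc43a1* crosses to -0.10 with the skeletal muscle markers as a covariate.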

How the data were processed

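RNA-seq reads of iWAT (KAPA Stranded RNA-Seq Kit, Illumina HiSeq) were aligned by the authors with HISAT2 to mm9, and raw counts per row were deposited without normalization. The counting tool, annotation and strand setting are not given in the sources used here. DESeq2 was used by the authors, per the labels and methods. The 2 groups of 3 libraries were compared with edgeR 4.0.16 (R 4.3.3), using filterByExpr, TMM, glmQLFit and glmQLFTest, with Benjamini-Hochberg adjustment over all 9872 rows and a threshold of 0.05. Standard errors were taken from the size of each log2 fold change over the root of its F statistic, and intervals are 95%. DESeq2 1.42.0 was run as an alternative, as were other scalings and filters, a robust fit, a replicate block, summed rows, a muscle covariate (mean log2 CPM of the muscle markers) and libraries left out. Leaving out replicate 3 of both groups was added after the data were seen. Both tools were tested on simulated data.

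Total counts were 14470542 to 17882713 per library. The common biological coefficient of variation was 0.196. No replicate pair agreed within sampling noise. The genes and lists were chosen with earlier results of these data known. Genes were named by rule, as *Slc6a7*, tested genes of the families with an unadjusted *p* under 0.05 or groups that do not overlap, the 10 with the highest mean CPM, low genes with at least 10 counts whose groups do not overlap, and list genes with an unadjusted *p* under 0.05. Of the genes under the filter, 1 is not reported here. Others are named to account for the remaining genes, or as examples chosen after their values were seen. Transcript lengths and coordinates come from GENCODE on NCBIM37 (mm9). Python 3.11.15, pandas 2.3.3 and matplotlib 3.10.9 were used. Macrophage, lymphocyte, endothelial, fibroblast, Schwann cell and mural marker lists were also summed.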

Additional observations from a re-analysis of the deposited data

How the results depend on the processing

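An adjusted *p* under 0.05 was given to 0 rows in edgeR (566 at an unadjusted *p* under 0.05, 1208 without AdWT replicate 1, 329 without AdWT replicate 2 and 315 with the muscle covariate), 27 in DESeq2 with its defaults, 13 without its independent filtering and Cook's cutoff, 1 with rows of at least 1 count in any library, 0 to 1 with each library left out in turn (1 without AdKO replicate 3) and 1 without replicate 3 of both groups. The log2 fold change of *Slc6a7* was 1.035 in DESeq2 with either setting (adjusted *p* 0.0112 and 0.0289), its only calls over 18 alternatives. Of the genes of the families, 1 had an unadjusted *p* under 0.05 with the muscle covariate, and 3 to 5 with each library left out, against 4. Their median log2 fold change lay between 0.0146 and 0.1885 with each library left out, highest without AdWT replicate 1. The sign turned with the muscle covariate for *Slc36a2* (0.11), *Slc38a2* (0.17) and *Slc43a1* (-0.10), and without replicate 3 of both groups for *Slc1a5* (0.0682), *Slc36a1* (-0.0050) and *Slc7a1* (-0.0472). With each library left out it ranged from -0.17 to 0.02 for *Slc1a5*, from -0.0399 to 0.25 for *Slc36a1*, from -0.0029 to 0.13 for *Slc6a6* and from -0.01 to 0.16 for *Slc7a1*. The cause was not tested. Of 306 values under alternatives, 285 kept their direction and side of the adjusted threshold, or for medians and counts stayed close. Most of them are log2 fold changes of genes whose adjusted *p* in edgeR was 0.817 or more. Few could therefore change side, and this total says little on how firm a difference is.

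Same-numbered libraries had correlations of -0.08, -0.13 and 0.33 in their deviations, so that the numbers do not pair them. With the replicate number as a block, *Slc6a7* had a log2 fold change of 1.03, and 3 genes of the families and 418 rows had an unadjusted *p* under 0.05. Counts under about 20 per library limit the genes at the low end.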

Other observations

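Carriers outside these families gave no unadjusted *p* under 0.05 in edgeR among the 8 tested of a list of 23, against 5.73% of all rows tested. *Slc16a10* (TAT1), which carries aromatic amino acids, measured between 110.7 and 145.0 CPM over the 6 libraries, and both of these extremes came from AdKO, from replicates 2 and 1. The mitochondrial aspartate and glutamate carrier *Slc25a12* had a log2 fold change of 0.17 (95% interval -0.27 to 0.61). Schwann cell and nerve markers summed to between 105.4 and 156.4 CPM in AdWT and between 117.2 and 142.2 CPM in AdKO, macrophage markers to between 358.4 and 752.3 CPM and between 634.4 and 787.5 CPM, and mural markers to between 100.3 and 165.3 CPM and between 161.3 and 197.6 CPM. Lymphocyte markers summed to between 12.5 and 34.5 CPM in AdWT and between 11.1 and 17.7 CPM in AdKO, endothelial markers to between 877.5 and 1281 CPM and between 859.5 and 1222 CPM, and fibroblast markers to between 2855 and 4284 CPM and between 3076 and 3883 CPM.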
